A study of Bos taurus with 8 samples.

Results

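The genes followed through this bovine muscle series were 10 members of the YAP-TEAD pathway: YAP1, WWTR1, TEAD1, CCN1, CCN2, ANKRD1, AMOTL2, AJUBA, LATS2 and AXL. They were found by symbol among the 21880 genes of the deposited matrices, and all 10 were present. Cells of the semitendinosus muscle of 10 Belgian Blue cattle (5 calves and 5 adults, with no treatment or allele named in the labels) were pooled at each of 5 timepoints for droplet single-cell RNA sequencing: directly after collagenase digestion (muscle, Timepoint 1), after 72 h on fibronectin (passage 0, Timepoint 2), and in the cultures of passage 2, passage 5 and passage 8. From passage 2 on, donors 1, 2 and 9 were carried as unsorted cultures on fibronectin, donors 5, 6 and 10 as sorted satellite cell (SC) cultures on laminin-521 and donors 4, 7 and 8 as sorted fibro-adipogenic progenitor (FAP) cultures on collagen I, all in serum-free growth medium. Donor 3 was present only in muscle, and substrate, sorting and donor cannot be told apart between the 3 kinds of culture.

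YAP1 and WWTR1 (the gene of TAZ) encode coactivators that enter the nucleus when the Hippo kinases are inactive, for example when cells spread on a stiff substrate, and TEAD1 encodes a DNA-binding factor that they act through. CCN1, CCN2 and ANKRD1 are the classical genes switched on by this complex, and AXL, a receptor tyrosine kinase, is another. AMOTL2, LATS2 and AJUBA are targets or partners that act back on the pathway: angiomotin-like 2 holds YAP in the cytoplasm, LATS2 is the kinase that phosphorylates it, and the LIM protein AJUBA binds and inhibits LATS kinases. In muscle, YAP activity is known to accompany SC activation and proliferation. Transcript levels do not report the phosphorylation or location of YAP and TAZ.

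The matrices held 36129 cells with a donor and a cell type assigned by the authors. UMIs (counted mRNA molecules) were summed over the cells of a type from 1 donor at a timepoint, and sums over at least 10 cells were kept (159 of 218, with 35848 cells). Levels are given as CPM, the UMIs of a gene scaled to a sum of 1000000, so they compare 1 gene between samples and not 1 gene with another. Mean UMIs per cell were 4773.1 in muscle and 19255.6 to 28141.5 in culture. Each timepoint was 1 matrix of 1 library, taken to hold both sequencing runs where the labels list 2, so that time and library cannot be told apart, and p-values measure the spread between donors. Called genes had an edgeR quasi-likelihood Benjamini-Hochberg adjusted p under 0.05 over all genes tested and an absolute log2 fold change (log2FC) over 1. A gene was tested when enough donors of either group reached a minimum of UMIs, so that a gene with low counts in 1 group could be tested only where it was high in the other and had to differ. Counts of called members are for this reason a description, and the cases are named beside their values. The types were assigned from clusters of these same values, which limits the comparisons between types. Defining markers were present in the types in muscle: PDGFRA at 794 ± 178 CPM in FAPs and 9.05 ± 8.53 in SCs, MYF5 at 793 ± 390 in SCs, CDH5 at 638 ± 83.9 in vascular endothelial cells (VECs) and RGS5 at 1522 ± 372 in smooth muscle-mesenchymal cells (SMMCs) (SD, n = 10 donors each). RGS5 was at 5.16 ± 4.67 CPM in SMMCs at passage 0 (n = 7) and ACTA2 at 2985 ± 1621.

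In freshly isolated muscle the coactivator transcripts were highest in endothelial cells, whereas the pattern over types differed from one target gene to the next. YAP1 stood at 18.2 ± 8.04 CPM in VECs, 14.8 ± 10.1 in SMMCs, 11.8 ± 4.01 in FAPs and 9.24 ± 6.41 in SCs (SD, n = 10 each), and every neighbouring pair in that order overlapped in range. WWTR1 reached 81 ± 29.9 CPM in VECs (49.8, 72.3 and 141 as lowest, median and highest donor) against 26.1 ± 14.6 in FAPs (3.7, 21.9 and 54.7). In lymphocytes WWTR1 was at 1.15 ± 3.62 and YAP1 at 3.92 ± 8.28 CPM, and TEAD1 at 1.06 ± 3.37. TEAD1 was highest in SMMCs (26 ± 11.8 CPM) and lowest of the mesenchymal and endothelial types with 10 donors in FAPs (9.1 ± 4.95), again with overlapping ranges.

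CCN2, which encodes connective tissue growth factor, differed widely between types. It ranged from 1064 over a median of 2228 to 6687 CPM in SMMCs, from 223 over 678 to 1595 in FAPs, from 148 over 315 to 705 in VECs and from 0 over 19.6 to 35.5 in SCs. The highest SC value lay under the lowest FAP and VEC values. SC levels (20.1 ± 11.9 CPM, 63 UMIs) overlapped those of lymphocytes (39.5 ± 52, median 16.5) and of monocytes/macrophages (10.3 ± 10.3, median 6.94), 2 immune types given for comparison. The share of free RNA in any of these values was not estimated. CCN1, its secreted matricellular relative, was at 2608 ± 822 CPM in SMMCs and 1321 ± 539 in VECs, and at near-equal levels in SCs (383 ± 84.9) and FAPs (355 ± 194). Lymphocytes held 38.8 ± 38.5 and monocytes/macrophages 31.1 ± 20.7 CPM of CCN1.

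ANKRD1, a nuclear ankyrin-repeat protein of striated muscle, was instead highest in SCs among the types with sums of at least 10 cells per donor. The 45 myocytes, under that number in every donor, gave 135 UMIs of ANKRD1 in 24 cells (53.3%, against 8.81% of SCs). SC levels ran from 6.26 over 84 to 375 CPM between donors, against 1.32, 4.04 and 27.2 in FAPs (41 UMIs in all) and 4 UMIs in SMMCs. AXL was highest in FAPs (139, 203 and 283 CPM) and next in SMMCs (38.3, 98.4 and 153), with 8 UMIs in VECs and none in the lymphatic endothelial cells (LECs) of 4 donors. Monocytes/macrophages, which use AXL in clearing dead cells, held 75.3 ± 38.1 CPM. AMOTL2 was at 175 ± 18 CPM in SCs, 104 ± 31.6 in FAPs, 91.6 ± 13.2 in VECs and 79.5 ± 22.9 in SMMCs, with SCs (156 to 211) above every donor of the other types, and at 22.7 ± 15.1 in LECs, 6.15 ± 6.91 in lymphocytes and 2.37 ± 3.99 in monocytes/macrophages. AJUBA was found mainly in SMMCs (40 UMIs, 21.4 ± 15.2 CPM), with 2 UMIs in FAPs, 9 in SCs and 0 in VECs, where 3 UMIs would be 0.733 CPM. LATS2 gave 6 to 20 UMIs per type in these 4 types and was too shallow for a statement.

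**Figure D1:**
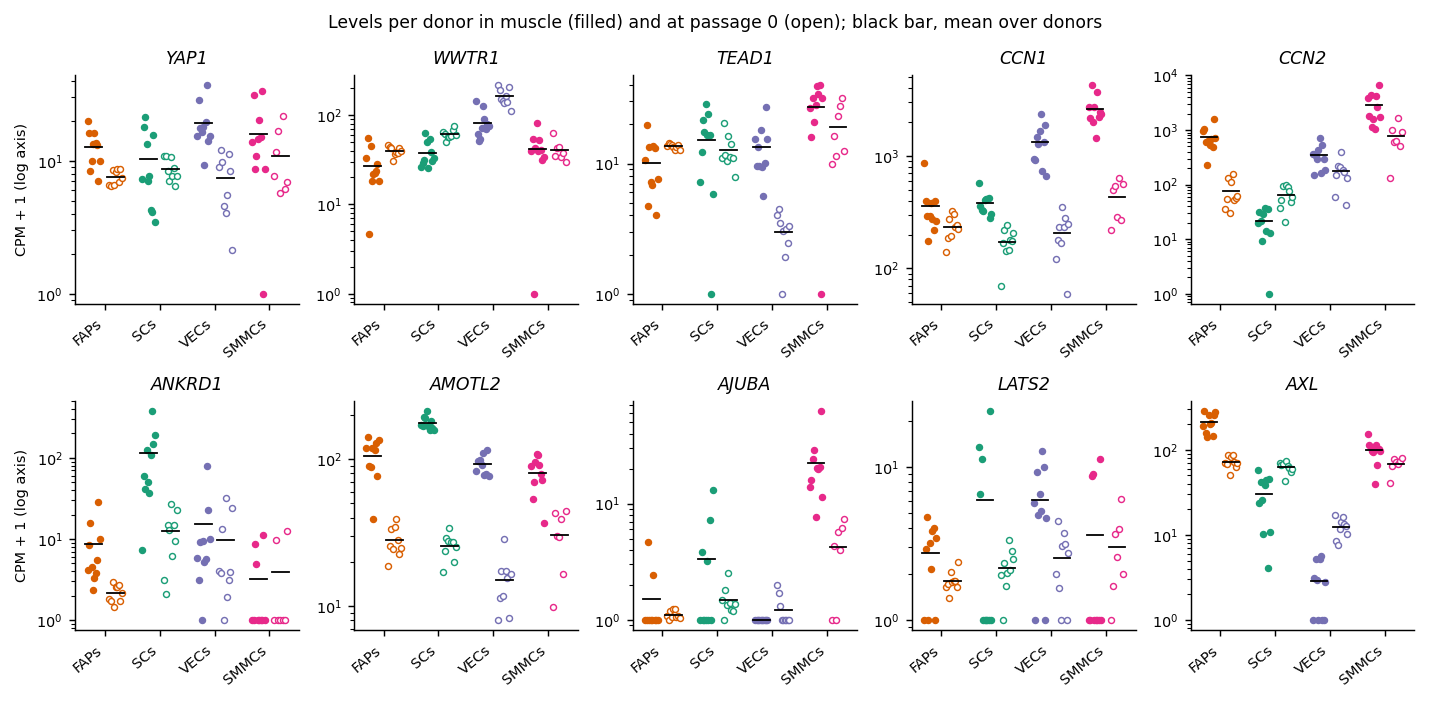
CPM + 1 of the members (log axis) in FAPs, SCs, VECs and SMMCs of muscle (filled) and of passage 0 (open), with 1 point per donor and a black bar at the mean. In muscle CCN2 lies between 0 and 35.5 CPM in SCs and between 223 and 1595 in FAPs; at passage 0 the 2 types overlap.

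Between the types of muscle, 19.9% of the genes tested were called for SCs against FAPs, and 2 of the 5 members tested, both lower in SCs. These were CCN2 (20.1 ± 11.9 CPM in SCs against 753 ± 375 in FAPs, 63 UMIs in SCs) and AXL (29.1 against 210 CPM, 71 UMIs in SCs), each without overlap between types. Both passed the filter on low counts through FAPs, where they were high, so that their calls are no independent result. AMOTL2 was higher in all 10 donors, but its log2FC of 0.65 (SE 0.17, adjusted p = 0.00193) was under the threshold. For VECs against FAPs the background was 27.2% and 4 of 5 members were called: WWTR1 (log2FC 1.59, SE 0.25) and CCN1 (1.93, SE 0.27) were higher, and CCN2 (-1.11, SE 0.31) and AXL lower. AXL, with 8 UMIs in muscle VECs (1.89 ± 1.9 against 210 ± 54 CPM), passed that filter only through FAPs, and its call is likewise no independent result. WWTR1, with 182 UMIs in muscle FAPs, passed it through VECs, the higher group, so the same holds for its call. Without donor 2 or donor 9 that CCN2 value was -0.95 or -0.92 and not called. For SMMCs against FAPs it was 23.3% with 3 of 5 members, CCN1 (2.79, SE 0.24) and CCN2 (1.87, SE 0.37) being higher and AXL (-1.24, SE 0.18) lower. CCN2 and CCN1 thus had opposite signs in VECs against FAPs, while in SMMCs both were higher.

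After 72 h in culture AMOTL2 was lower in each of the 4 types tested (FAPs, SCs, VECs and SMMCs) and CCN1 in 3 of them. CCN2 and AXL were lower in FAPs and, from low counts in muscle, higher in SCs. AMOTL2 was the 1 member called in all 4 types; in monocytes/macrophages, which were not tested, it was at 2.37 ± 3.99 CPM in muscle and 10.8 ± 8.65 at passage 0 (12 UMIs, n = 7). In FAPs it went from 38.4, 116 and 141 CPM in muscle (lowest, median and highest of 10 donors) to 17.8, 24.8 and 38.1 at passage 0 (9 donors), in SCs from 156, 168 and 211 to 16.2, 26.3 and 33, and in VECs from 75.8, 93 and 114 to 7.04, 14.6 and 27.6. None of these ranges overlapped, and the level was lower in 9 of 9 donors in each type. In SMMCs it was lower in 6 of 7 donors, from 35.9, 83.8 and 108 to 8.86, 28.9 and 43.6 CPM. The log2FC of AMOTL2 was -1.87 (SE 0.19, adjusted p = 6.7e-09) in FAPs, -2.86 (SE 0.11, adjusted p = 8.6e-17) in SCs, -2.67 (SE 0.18, adjusted p = 1.4e-13) in VECs and -1.20 (SE 0.25, adjusted p = 1.5e-04) in SMMCs. In VECs and SMMCs, with 181 and 200 UMIs at passage 0, it passed the filter on low counts through muscle, the higher group, so that these 2 calls are no independent result. Without that filter its log2FC in SMMCs was -0.97 and not called.

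In FAPs, 3 of the 7 members tested were called, all lower, where 43.4% of all genes were called in either direction. CCN2 levels of 223, 678 and 1595 CPM in muscle compared with 29.2, 54.8 and 157 at passage 0. The ranges did not overlap, and the median of the donors' own ratios was 0.0829. The log2FC was -3.18 (SE 0.37, adjusted p = 2.5e-07). AXL moved from 139, 203 and 283 to 49.9, 69.2 and 86.7 CPM without overlap (log2FC -1.48, SE 0.13, adjusted p = 4.8e-10). CCN1, by contrast, stayed within the donor spread (355 ± 194 against 235 ± 57.7 CPM, log2FC -0.45, SE 0.23, adjusted p = 0.0762). YAP1 (-0.78, SE 0.16), WWTR1 (0.73, SE 0.19) and TEAD1 (0.60) had smaller differences, under the fold threshold. ANKRD1, at 7.63 ± 7.99 CPM in muscle and 1.18 ± 0.53 at passage 0, was lower in 9 of 9 donors but did not pass the filter on low counts. With donor as a replicate block it was tested and called. It then passed the filter mainly through muscle, the higher group (41 UMIs), so that this call is no independent result. The median log2FC over the members tested was -0.78, beside 0.03 over all genes.

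In SCs, 5 of 6 members were called beside 34.3% of all genes, 3 lower and 2 higher. CCN1 fell from 279, 384 and 576 to 68.8, 176 and 243 CPM, without overlap and in 9 of 9 donors (log2FC -1.21, SE 0.17, adjusted p = 1.7e-06). Without the filter on low counts its log2FC was -0.84 and not called. ANKRD1 fell in 9 of 9 donors with overlapping ranges, from 6.26, 84 and 375 to 1.09, 11.8 and 26.3 CPM (log2FC -3.29, SE 0.54, adjusted p = 2.3e-05), and it passed the filter through muscle. CCN2 rose in 8 of 9 donors, from at most 35.5 CPM to 19.9, 57.1 and 96.6 (log2FC 1.47, SE 0.38, adjusted p = 0.00188), a difference that rests on 63 UMIs in muscle SCs and on a gene that passed the filter through passage 0. AXL rose in 9 of 9 donors, from 3.1, 31.2 and 56.4 to 42.5, 62.8 and 73.3 CPM (log2FC 1.21, SE 0.25, adjusted p = 1.1e-04). With 71 UMIs in muscle SCs, AXL also passed the filter through passage 0, the higher group, so that its call is no independent result. By level, CCN2 and AXL in SCs came close to the FAPs of the same timepoint (76.2 ± 45.9 and 70.9 ± 11.7 CPM). FAP markers (PDGFRA, DCN and LUM summed) went from 183 ± 243 to 1497 ± 365 CPM in the same SCs and from 22298 ± 1472 to 3487 ± 457 in FAPs, and the part of this in the values of CCN2 and AXL was not tested.

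In VECs, 3 of the 4 members tested were called (background 35.1%). WWTR1 rose in 9 of 9 donors, from 49.8, 72.3 and 141 to 110, 149 and 216 CPM (log2FC 1.02, SE 0.16, adjusted p = 2.1e-06), close to the threshold, and without donor 2, 3, 4 or 9 it was 0.96 to 0.99 and not called, nor was it with donor as a replicate block (0.94). CCN1 fell without overlap from 664, 1304 and 2371 to 58.6, 231 and 348 CPM (log2FC -2.68, SE 0.31, adjusted p = 3.2e-07), and CCN2 (346 ± 177 against 174 ± 105 CPM, adjusted p = 0.0254) was just under the fold threshold and was not called, although with the block it was (-1.03). Of the members that did not pass the filter in VECs, TEAD1 (12.4 to 1.99 CPM, without overlap, 46 and 28 UMIs) and YAP1 (18.2 to 6.43 CPM) were at lower levels at passage 0 in 9 of 9 donors, and AXL (1.89 to 11.5 CPM, without overlap, 8 and 128 UMIs) at a higher level in 9 of 9. In SMMCs, 3 of 4 members were called, all lower (background 36.4%). CCN1 fell without overlap, from 1447, 2407 and 4269 to 219, 497 and 638 CPM (log2FC -2.59, SE 0.27, adjusted p = 2.4e-07), and CCN2 in 7 of 7 donors with overlap, from 1064, 2228 and 6687 to 133, 627 and 1688 (log2FC -1.90, SE 0.50, adjusted p = 0.00282). AJUBA did not pass the filter there and was at 21.4 CPM in muscle and 3.24 at passage 0 (40 and 23 UMIs), lower in 7 of 7 donors without overlap. The contractile genes of smooth muscle were also lower in SMMCs, 6 of 6 being called, from a sum of 19463 ± 7837 to 6339 ± 2418 CPM.

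**Figure D2:**
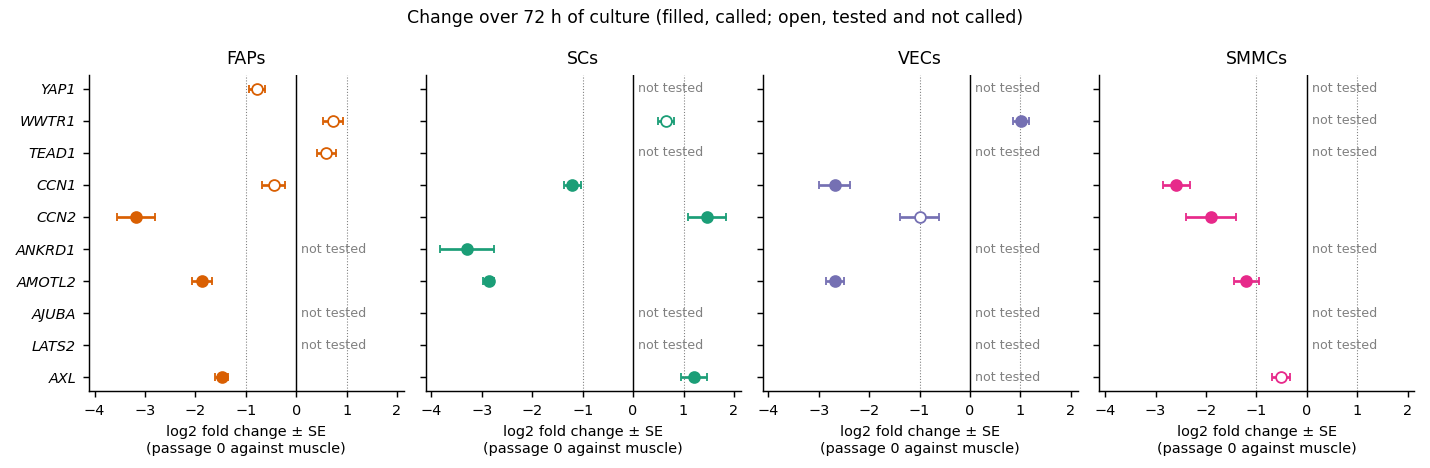
log2FC of members from muscle to passage 0 in FAPs, SCs, VECs and SMMCs, with bars of 1 SE; filled points were called, open points tested and not called. AMOTL2 lies below 0 in all 4 types, while CCN2 is at -3.18 in FAPs and 1.47 in SCs.

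The changes themselves differed between types. Tested as SCs minus FAPs, 20.0% of genes and 2 of 8 members were called, CCN2 by 4.85 (SE 0.55, adjusted p = 8.3e-09) and AXL by 2.90 (SE 0.28, adjusted p = 3.4e-11), both on the log2 scale. The 2 genes had 63 and 71 UMIs in muscle SCs, so that these calls are no independent result. CCN2 of muscle SCs overlapped the level of lymphocytes, and the part of free RNA in that starting level was not estimated. VECs minus FAPs gave 4 of 7 members (background 25.6%): CCN2 (2.24, SE 0.52) and AXL on the positive side, and CCN1 (-2.17, SE 0.38) and TEAD1 on the negative. AXL and TEAD1 did not pass the filter within VECs and entered through FAPs, so that their calls are no independent result. For SMMCs minus FAPs the same 4 genes were called among 6 (background 17.1%), CCN2 by 1.52 (SE 0.57, adjusted p = 0.0406), AXL by 1.20 (SE 0.23), TEAD1 by -1.10 (SE 0.35) and CCN1 by -1.90 (SE 0.34). With donor as a replicate block CCN2 (1.37) and TEAD1 (-1.02) were no longer called there, and CCN2 was also lost without donor 1, 5, 6, 8, 9 or 10 (1.09 to 1.55), TEAD1 without donor 6 or 10 (-0.99 and -1.01) and AXL without donor 10 (0.89). TEAD1 did not pass the filter within SMMCs either (51 and 83 UMIs). In SCs minus FAPs the block added YAP1 (1.03), with 22 UMIs in muscle SCs. CCN1 and CCN2 therefore moved apart: FAPs lost CCN2 and held CCN1 within the spread, and VECs and SMMCs lost more CCN1 than FAPs did.

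Freshly digested tissue carried other signals that moved with these values. The 15 early response genes (FOS, JUN, EGR1 and others that tissue dissociation induces) summed to 7944 ± 2376 CPM in muscle FAPs, 19147 ± 4183 in SCs, 20007 ± 3606 in VECs and 22848 ± 5724 in SMMCs, and to 1318 to 1672 CPM at passage 0. Of those tested, 13 of 15 were called lower in FAPs, 11 of 14 in SCs, 13 of 15 in VECs and 11 of 14 in SMMCs. Muscle fibre genes, a measure of free RNA, went from between 369 and 1316 CPM to between 1.76 and 7.73 in the 4 types. Their part in the changes of CCN1, ANKRD1 and AMOTL2 was not tested.

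At passage 0 the level of ANKRD1 was higher in SCs than in FAPs, where its counts were low, and VECs held more WWTR1 and less TEAD1 and AXL than FAPs. For SCs against FAPs 10.7% of genes were called and 1 of 8 members, a share near that background, with 4 of 8 at an unadjusted p under 0.05. ANKRD1 was at 1.09, 11.8 and 26.3 CPM in SCs and 0.464, 1.17 and 1.94 in FAPs, higher in 9 of 9 donors (log2FC 3.38, SE 0.41, adjusted p = 1.8e-06). With 162 UMIs in FAPs it passed the filter on low counts through SCs, the higher group, so that its call is no independent result. WWTR1, at 49.4 to 75.3 CPM in SCs and 29.5 to 45.4 in FAPs, did not overlap but was not called. VECs against FAPs gave 5 of 8 members beside 27.4% of genes. WWTR1 (161 ± 35.4 against 38.8 ± 4.82 CPM, log2FC 2.10, SE 0.10), CCN2 (1.27, SE 0.40) and ANKRD1 (3.09, SE 0.53) were higher. ANKRD1 rested on 123 UMIs from 25 of 831 VECs, with 39 in 1 cell. Its range in VECs (0, 2.93 and 30.7 CPM) overlapped that in FAPs. TEAD1 (1.99 ± 1.06 against 12.5 ± 0.608 CPM, log2FC -2.39, SE 0.16) and AXL (-2.65, SE 0.14) were lower. TEAD1, with 28 UMIs in VECs, passed the filter on low counts through FAPs, where it was high, so that its call is no independent result. LECs held the highest WWTR1 mean of any type (219 ± 60.8 CPM, n = 7), overlapping that of VECs, and little TEAD1 (4.78 ± 3.83). The 2 endothelial types thus combined the highest means of WWTR1 with the lowest of TEAD1. For SMMCs against FAPs 2 of 9 members were called (background 11.3%), CCN2 (781 ± 488 CPM in SMMCs, log2FC 3.33, SE 0.47, adjusted p = 6.3e-05, higher in 7 of 7 donors) and ANKRD1 (2.25, SE 0.56, adjusted p = 0.00426), the latter from 36 UMIs, higher in 2 of 7 donors and not called with the block or without donor 4 or 10.

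From passage 0 to passage 2 CCN2, ANKRD1 and AMOTL2 rose in both of the types that were still present, FAPs and SCs. FAPs had 5 of 9 members called, all higher, where 18.8% of genes were called in either direction, and SCs 3 of 8, all higher, where 10.0% were. In FAPs CCN2 was at 29.2, 54.8 and 157 CPM at passage 0 (9 donors) and 242, 969 and 1210 at passage 2 (8 donors). It rose without overlap in the 8 donors present at both, by a median ratio of 10.7 (log2FC 3.67, SE 0.42, adjusted p = 1.5e-06). In SCs it rose as far without overlap in 9 of 9 donors, from 19.9, 57.1 and 96.6 to 209, 579 and 1571 CPM (median ratio 12.2, log2FC 3.40, SE 0.39, adjusted p = 2.1e-06). At that point SCs held more CCN2 than in any muscle SC sample, and FAPs overlapped their muscle range.

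Of the members in FAPs, ANKRD1 rose by the largest factor, from at most 1.94 CPM to 0, 67.1 and 127 (log2FC 6.01, SE 0.55, adjusted p = 1.6e-07), in 7 of 8 donors. The donor without a UMI was donor 5, represented by 19 FAPs from an SC culture. In SCs ANKRD1 went from 1.09, 11.8 and 26.3 to 13, 79.3 and 279 CPM, up in 8 of 9 donors (log2FC 2.80, SE 0.51, adjusted p = 2.3e-04). AMOTL2 rose in 9 of 9 donors in SCs without overlap, from 16.2, 26.3 and 33 to 40.7, 61.5 and 115 CPM (log2FC 1.42, SE 0.17, adjusted p = 1.6e-06), and in 8 of 8 in FAPs, where its log2FC of 1.00 (SE 0.16, adjusted p = 3.3e-05) sat at the threshold. It was between 0.94 and 1.00 and not called without donor 8, 9 or 10, with sums of at least 30 cells, with the donor block (0.99) or by DESeq2. Even so, SCs and FAPs stayed below their muscle means of AMOTL2 at passage 2 (67.4 ± 22.4 against 175 ± 18 CPM, and 49.8 ± 12.9 against 104 ± 31.6). In FAPs CCN1 (log2FC 1.10, SE 0.26, adjusted p = 0.00154, 6 of 8 donors, with the block 0.98 and not called) and LATS2 (1.15, SE 0.24, adjusted p = 4.1e-04, 7 of 8) were also higher. CCN1 in SCs went from 172 ± 50.5 to 315 ± 109 CPM, up in 7 of 9 donors, and was not called. Without donor 6 (1.06) or donor 10 (1.05) it was. Called in neither type were YAP1, WWTR1, TEAD1 and AXL, in FAPs with WWTR1 at 40.2 ± 17.3 and YAP1 at 5.91 ± 2.89 CPM and in SCs at 78.3 ± 10.4 and 9.48 ± 5.45. In SCs WWTR1 and AXL were nonetheless higher in 9 of 9 donors (median ratios 1.36 and 1.61), TEAD1 in 7 of 9 and YAP1 in 5 of 9.

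**Figure D3:**
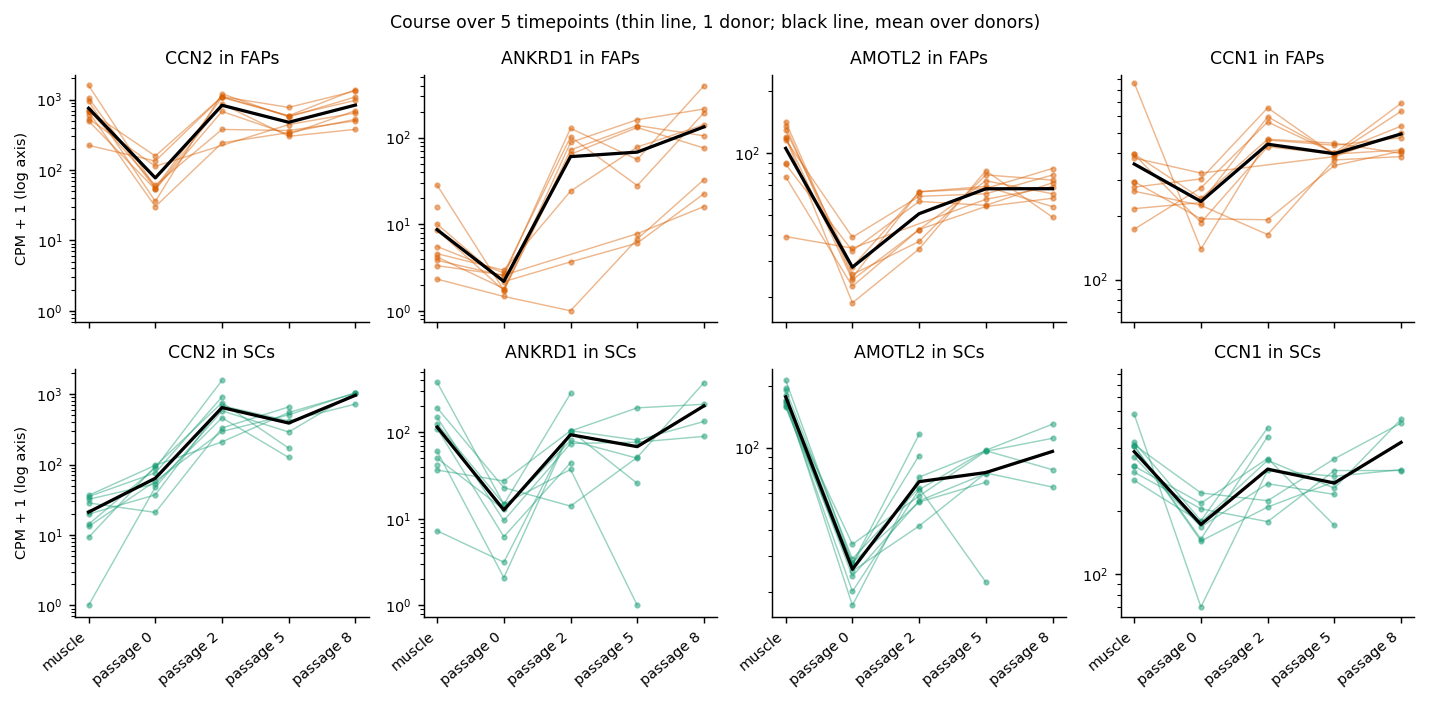
CPM + 1 (log axis) of CCN2, ANKRD1, AMOTL2 and CCN1 in FAPs and SCs over the 5 timepoints, with a thin line per donor and a black line for the mean. CCN2 of FAPs is at 753 CPM in muscle, 76.2 at passage 0 and 830 at passage 2; CCN2 of SCs is at 20.1, 62.8 and 644.

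Genes of the contractile apparatus rose over the same interval, with 5 of 5 tested called higher in each type and sums going from 866 ± 102 to 2735 ± 846 CPM in FAPs and from 1026 ± 126 to 2873 ± 455 in SCs. FAP markers in SCs went on from 1497 ± 365 to 3868 ± 1866 CPM, and muscle fibre genes in SCs, which in culture can come from differentiating cells, from 1.76 ± 1.16 to 1023 ± 884. Whether these had a part in the rise of the targets was not tested. The early response genes changed less, with 3 of 15 called higher in FAPs and 1 of 13 in SCs.

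Within the unsorted cultures at passage 2, where SCs and FAPs of donors 1, 2 and 9 shared a dish, 2 of 10 members were called beside 12.9% of genes. WWTR1 was at 67.4, 99.7 and 88.3 CPM in SCs and 27.3, 31.9 and 28.7 in FAPs of these donors, higher in all 3 (log2FC 1.43, SE 0.17, adjusted p = 6.6e-04). AJUBA, with 15 UMIs in SCs and 10 in the more numerous FAPs, was at 1.46 and 0.12 CPM on average. It passed the filter on low counts through SCs alone, and its call is no independent result. CCN2 was at 683, 460 and 579 CPM in SCs and 1210, 865 and 1072 in FAPs. The groups did not overlap, and the log2FC of -0.97 (SE 0.16, adjusted p = 0.00333) was just short of the threshold.

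After passage 2 no member was called in any comparison between successive timepoints, in which few genes were called at all. For SCs at passage 5 against passage 2, edgeR called 0 of 10 members beside 0.416% of genes, with 1 member at an unadjusted p under 0.05 and 0 called by DESeq2. For FAPs at passage 5 against passage 2, edgeR called 0 of 9 beside 0.700% of genes, with 3 at an unadjusted p under 0.05 and 0 by DESeq2. At passage 8 against passage 5 in FAPs, edgeR called 0 of 9 beside 0.445%, with 3 at an unadjusted p under 0.05 and 0 by DESeq2. With donor as a replicate block the genes called rose from 42 to 231, from 81 to 434 and from 46 to 120 in these 3 comparisons, with no member among them. From passage 2 to passage 5, CCN2 of FAPs was higher in 1 of 8 donors (median ratio 0.541). It was at 300, 441 and 774 CPM at passage 5 and 377, 697 and 1385 at passage 8, higher in 9 of 9 donors at passage 8, and the log2FC of 0.72 for this later step (SE 0.27, adjusted p = 0.113) was not called. In the SCs left at passage 8, from donors 1, 6, 9 and 10, CCN2 was at 723, 1031, 1053 and 1048 CPM and ANKRD1 at 209, 132, 88.4 and 372. Every one of these CCN2 values was above the passage 5 range of SCs (125 to 658 CPM). This last pair was not tested.

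Between kinds of culture, which differ in donors, sorting and substrate, 1 member was called in the contrasts tested. In SCs at passage 2, CCN2 was at 330, 209 and 294 CPM in sorted SC cultures (donors 5, 6 and 10) and 683, 460 and 579 in unsorted cultures (donors 1, 2 and 9), with no overlap. It was the 1 member of 10 called, with a log2FC of -1.16 (SE 0.21, adjusted p = 0.02) beside 7.51% of genes, and without donor 6 the log2FC was -0.98, without donor 1 -1.02 and without donor 9 -1.14, no longer called. The few SCs annotated in FAP cultures (95, 50 and 18 cells of donors 4, 7 and 8) were at 758, 1571 and 914 CPM, above both. DCN, a FAP marker, followed the same order in these SCs, with means of 1350, 3236 and 3628 CPM in SC, unsorted and FAP cultures, and its part was not tested. Of the early response genes 9 of 15 were called lower in the sorted SC cultures. At passage 5 the order of CCN2 was the other way, with 658, 548 and 508 CPM in SC cultures against 416, 125 and 289 in unsorted cultures, a contrast that was not tested. For FAPs of sorted FAP against unsorted cultures at passage 2, edgeR called 0 of 9 members beside 0.0170% of genes, with 4 at an unadjusted p under 0.05 and 0 by DESeq2.

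FAPs annotated within SC cultures held little ANKRD1. At passage 2 donors 5 and 10 (19 and 12 cells) were at 0 and 2.67 CPM, and the 6 other donors between 23.1 and 127. At passage 5 donors 5, 6 and 10 were at 5.74, 6.77 and 5.05 CPM and the others between 26.9 and 160, and at passage 8 at 31.8, 15 and 21.5 against 74.8 to 396. The groups did not overlap at any of these timepoints, and the contrast was chosen after the values were seen and was not tested. Other members went either way. At passage 5 WWTR1 was higher in donors 5, 6 and 10 (63.3, 55.3 and 59.7 against 20.4 to 32.7 CPM). AXL was also higher (150, 146 and 162 against 72.5 to 119 CPM). CCN1 was lower (349, 385 and 371 against 393 to 446 CPM). At passage 8 WWTR1 and AXL were again higher without overlap, while CCN1 overlapped. At passage 2 WWTR1 overlapped. These differences were not tested either. PDGFRA in the same cells averaged 72.8 CPM at passage 5, against 543 in FAP and 287 in unsorted cultures, so these cells also differed in a marker of the type they were assigned to.

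**Figure D4:**
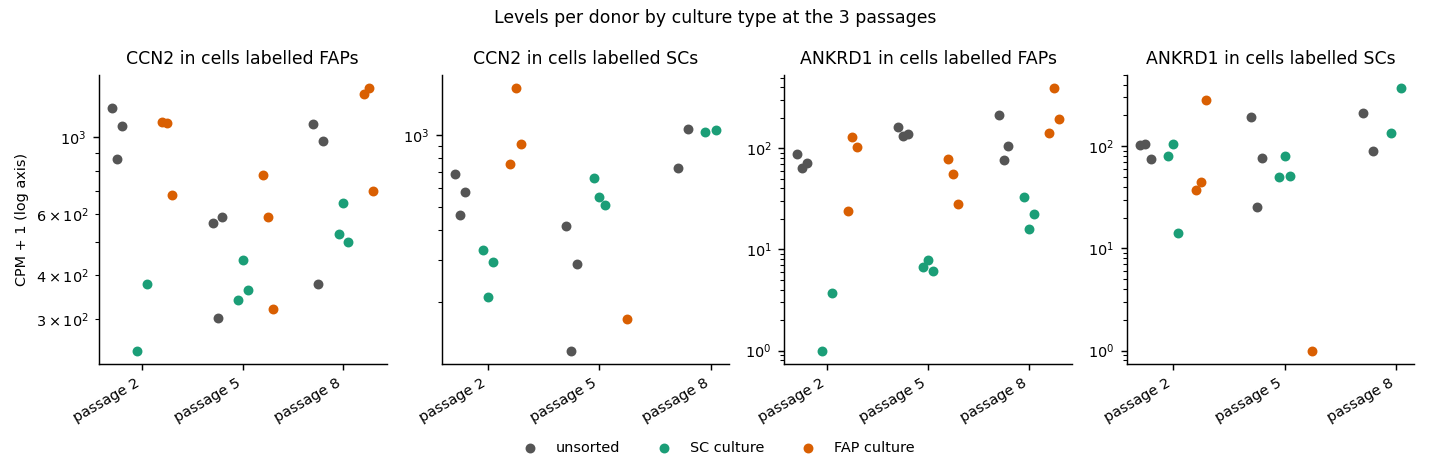
CPM + 1 of CCN2 and ANKRD1 (log axis) in FAPs and SCs at passages 2, 5 and 8, with 1 point per donor, by kind of culture. At passage 5 the 3 SC cultures hold 5.05 to 6.77 CPM of ANKRD1 in FAPs and the other donors 26.9 to 160.

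Targets also differed in how their UMIs were spread over cells. In muscle SCs 340 UMIs of ANKRD1 came from 57 of 647 cells, with 70 in the highest, and the top 5% of cells held 92.9% of them. In culture the top 5% held 96.4% in passage 0 SCs, 85.3% in passage 2 SCs and 77.9% in passage 2 FAPs, and 64.9% and 62.5% in SCs and FAPs at passage 8. CCN2 in muscle SCs, with 63 UMIs in 34 cells, gave 98.4%, which so few positive cells fix. At passage 2 CCN2 was spread more widely than ANKRD1, with 34.3% in the top 5% of passage 2 SCs and 18.5% of passage 2 FAPs, as were AMOTL2 (24.1% and 20.9%) and CCN1 (22.2% and 13.8%). These cells were not thinned, and depth can add to the UMIs of a gene in a cell. In SCs at passage 8, cells with an ANKRD1 UMI were the shallower, at a median depth of 7600 against 19196 UMIs. For CCN2 the medians were 15356 and 20178, but 152 of 156 cells had a UMI, so the second rests on very few cells. Cells with a CCN1 or AMOTL2 UMI were the deeper. A gene found in under 5% of cells gives 100% by construction, as ANKRD1 did in FAPs of muscle and passage 0. Where little more than 5% are positive, as for ANKRD1 in SCs of muscle (57 of 647 cells) and of passage 0 (137 of 2282), the share is near that limit.

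With every cell thinned to 2000 UMIs, the share of cells with a CCN2 UMI showed the same course as the levels. Shallower cells were left out (1193 of 1231 FAPs and 601 of 647 SCs remained in muscle, and 5655 of 5756 and 2279 of 2282 at passage 0), while the unthinned shares cover all cells. In FAPs it averaged 46.2% in muscle, 11.5% at passage 0 and 58.4% at passage 2 over donors (65.6%, 46.3% and 96.7% unthinned). In SCs it was 2.96%, 9.25% and 49% (5.26%, 40.3% and 83% unthinned). Lymphocytes of muscle gave 3.61% and monocytes/macrophages 1.32%, and the muscle SCs lay between them. For ANKRD1 the shares in SCs were 6.15%, 1.56% and 7.62%, then 4.69% at passage 5 (7 donors) and 21.4% at passage 8 (4 donors), beside 0% in lymphocytes. AMOTL2 in SCs went from 26.1% to 4.63% and 12.8%.

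**Figure D5:**
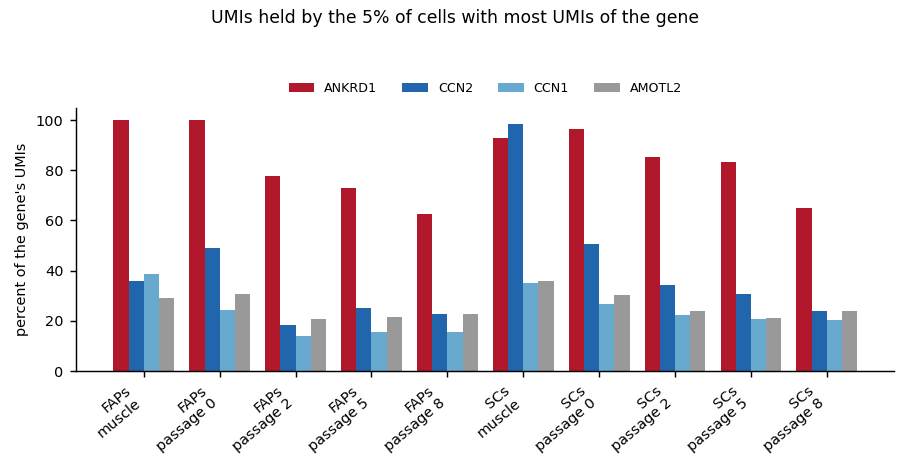
Percent of UMIs held by the 5% of cells with most UMIs, for ANKRD1, CCN2, CCN1 and AMOTL2 in FAPs and SCs at each timepoint. ANKRD1 stays between 62.5% and 100%, and CCN2 of passage 2 FAPs is at 18.5%.

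The other genes of the pathway were read from a list of 40, of which 39 were in the matrices (NUAK2 was not found by symbol). Of those tested from muscle to passage 0, 4 were called higher and 11 lower of 33 in FAPs, 3 and 9 of 20 in SCs, 1 and 6 of 21 in VECs and 1 and 6 of 11 in SMMCs, with median log2FC of -0.66, -0.67, -0.55 and -1.12 beside all-gene medians within 0.03 of 0. Of all genes, 43.4%, 34.3%, 35.1% and 36.4% were called in these types, so that the counts in FAPs and VECs are near the background, and none is read as particular to the list. TGFB2, a ligand and YAP-TEAD target, fell the furthest of these in FAPs (152 to 17.9 CPM, log2FC -2.93, SE 0.26), SCs (241 to 23.5, -3.41, SE 0.30) and VECs (75.8 to 9.16, -2.98, SE 0.30). GADD45A, a stress-response gene, fell in FAPs (-1.84, SE 0.14) and VECs (-2.31, SE 0.11). MAP4K4, a kinase upstream of LATS, rose in the same 3 types, from 7.11 to 47 CPM in FAPs (log2FC 2.91, SE 0.18), 10.2 to 52.2 in SCs (2.20, SE 0.20) and 13.5 to 57.1 in VECs (2.11, SE 0.22). TEAD4, a TEAD factor also expressed in myoblasts, gave 1 UMI in muscle FAPs and 1275 at passage 0, where it was at 9.34 CPM. In SMMCs ARHGEF17 fell from 177 to 46 CPM (-1.98, SE 0.15). TEAD4 in FAPs and MAP4K4 in SCs and VECs passed the filter through passage 0, and TGFB2 in VECs and ARHGEF17 in SMMCs mainly through muscle. CCDC80, a matrix gene at 1635 CPM in muscle FAPs, rose in SCs from 35.4 to 301 CPM (2.99, SE 0.19) and in SMMCs from 419 to 1097 (1.42, SE 0.32), while in FAPs it fell to 476.

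From passage 0 to passage 2 6 genes of the list were called higher and 1 lower of 36 in FAPs, and 8 higher and 1 lower of 34 in SCs. All genes also had more higher than lower calls (1243 and 886 of 11325 in FAPs, 602 and 382 of 9793 in SCs). CRIM1, a transmembrane regulator of growth factors, rose from 8.52 to 60.8 CPM in FAPs (log2FC 3.06, SE 0.26) and from 14.4 to 40.6 in SCs (1.44, SE 0.15). VGLL3, a TEAD cofactor of the vestigial-like family, rose from 5.51 to 23.7 CPM in FAPs (2.38, SE 0.24) and from 8.55 to 36.6 in SCs (2.08, SE 0.17). VGLL2, its relative of skeletal muscle, was the 1 gene lower in both, at -2.57 (SE 0.39) in FAPs and -1.21 (SE 0.32) in SCs. AMOT, the angiomotin, rose in FAPs (1.55, SE 0.35). Between the later passages 0 of 34 to 36 genes were called, and between sorted SC and unsorted cultures only F3, tissue factor, which was lower in SCs of the sorted cultures (3.83 against 19.2 CPM, log2FC -2.46, SE 0.40, adjusted p = 0.0171).

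Among types, the list gave 1 higher and 3 lower of 17 for SCs against FAPs in muscle, 3 and 5 of 19 for VECs and 4 and 2 of 16 for SMMCs, where 19.9%, 27.2% and 23.3% of all genes were called. CRIM1 was higher than in FAPs (32.5 CPM) in all 3, at 76.4, 363 and 431 CPM, and F3 (128 CPM in FAPs) lower in all 3, at 28.6, 4.7 and 15.3. ARHGEF17 was at 177 CPM in SMMCs and 12.8 in FAPs. It passed the filter on low counts through SMMCs, and F3 through FAPs, where each was high. At passage 0 the counts were 1 and 3 of 36 for SCs, 7 and 10 of 35 for VECs and 6 and 4 of 36 for SMMCs (10.7%, 27.4% and 11.3% of all genes), and in unsorted cultures at passage 2 they were 2 and 6 of 37 for SCs against FAPs (12.9%). None of these counts is read as particular to the list either.

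Over 19 combinations of type and timepoint, the genes with mean log2 levels most like those of CCN2 were AEBP1 (Pearson r = 0.93), CLTB (0.91), ATP10A (0.90), DLC1 (0.88) and INHBA (0.88), of 10005 genes compared. Within the members CCN2 was most like CCN1 (0.80), TEAD1 (0.73) and AMOTL2 (0.70) and less like ANKRD1 (0.47). ANKRD1 was most like RAB3IP (0.92), PCDH7 (0.91) and BDNF (0.91), and YAP1 most like NCKAP1 (0.94), NUDT16 (0.93) and TCF7L1 (0.93). These profiles share libraries and donors and are given as a description.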

How the data were processed

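Droplet 3′ libraries of 5 timepoints were used. Per the labels and methods, the authors aligned reads to ARS-UCD1.2 (Ensembl release 101) with Cell Ranger 6.0.1, assigned donors from genotypes with demuxlet, removed cells beyond 3 median absolute deviations and named types from clusters; the deposited values are raw UMI counts. Doublets were not called again here. 12 columns of a combined cell table were not used.

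Counts were summed per donor, type and timepoint (at least 10 cells), filtered with filterByExpr, scaled by TMM and tested with edgeR 4.0.16 (R 4.3.3), without a donor block. SE is the absolute log2FC over the square root of F. Scripts were tested on simulated data.

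Named were the 10 members and, of the pathway list, at most the 3 largest called changes in each direction; F3, CRIM1 and CCDC80 values of further types were added for comparison. Members and lists were chosen with earlier results of these data known. Donor numbers mark the same animal across timepoints; own-donor correlations of deviations ran from -0.37 to 0.51 in the pairs of timepoints up to passage 2 and from 0.20 to 0.83 between later passages. Alternatives were DESeq2 1.42.0, a donor block, no filter, at least 30 cells, thinning to equal depth, leaving out donors and, chosen after seeing the data, matching cultures only.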

Additional observations from a re-analysis of the deposited data

Results flagged for a closer look

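Of 98 groups of donors with at least 10 UMIs per donor, 13 had a highest or lowest donor far from the others by Dixon's criterion, of which chance would give about 5%. In muscle these were CCN1 in FAPs (866 CPM) and in SCs (576 CPM), both donor 1, and ANKRD1 in SCs (375 CPM, donor 8). At passage 0 they were donor 6 in VECs, with CCN2 at 401 and AMOTL2 at 27.6 CPM, and donor 2 in SMMCs, with WWTR1 at 62 and AXL at 39.9 CPM. At passage 2 the groups were WWTR1 in FAPs (80 CPM, donor 10, 12 cells), YAP1 in SCs (23.5 CPM) and ANKRD1 in SCs (279 CPM), the last 2 from the 18 cells of donor 8. Later ones were ANKRD1 (190 CPM, donor 1) and AMOTL2 (21.3 CPM, donor 4, 10 cells, 3 UMIs) in SCs at passage 5 and CCN2 in SCs at passage 8 (723 CPM, donor 1).

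The change from muscle to passage 0 differed between types by the interaction test for CCN2 and AXL in SCs against FAPs (4.85 and 2.90), for CCN2, AXL, TEAD1 and CCN1 in VECs against FAPs (2.24, 3.96, -2.88 and -2.17) and for the same genes in SMMCs against FAPs (1.52, 1.20, -1.10 and -1.90), all as differences of log2FC. AXL and TEAD1 in VECs and TEAD1 in SMMCs did not pass the filter on low counts within those types and entered through FAPs, and CCN2 and AXL in SCs had 63 and 71 UMIs in muscle, so that these values are no independent result.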

How the results depend on the processing

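Of 2035 recomputed log2FC of members, 1980 stayed on their side of the threshold, 36 lost the call and 19 gained one. A member that an alternative fit no longer tested gave no value. Calls lost in that way, as with thinning, are not among the 36. No member called in the main or the recomputed fit reversed its direction. Changes of sign between 2 uncalled values were not counted. With every sum thinned to the depth of the shallowest, which leaves fewer genes to test, members called went from 5 to 2 for SCs at passage 0 against muscle, from 5 to 3 for FAPs at passage 2 against passage 0, from 1 to 0, 5 to 3 and 2 to 1 for SCs, VECs and SMMCs against FAPs at passage 0, from 2 to 1 in unsorted cultures and from 4 to 1 for SMMCs minus FAPs. Without the filter on low counts they went from 3 to 7 for VECs at passage 0 against muscle, from 2 to 4 and 3 to 5 for SCs and SMMCs against FAPs in muscle and from 1 to 2 for SCs against FAPs at passage 0. At passage 0 against muscle, AMOTL2 in SMMCs (-0.97) and CCN1 in SCs (-0.84) then lost their calls, and WWTR1 in SCs (1.01) gained one. CCN2 in SMMCs minus FAPs (1.60) was also lost. With donor as a replicate block, which the shared animals justify, the members called went from 2 to 1 for SMMCs against FAPs at passage 0 (ANKRD1 lost), from 5 to 3 for FAPs at passage 2 against passage 0 (CCN1 0.98 and AMOTL2 0.99 lost) and from 4 to 2 for SMMCs minus FAPs (CCN2 1.37 and TEAD1 -1.02 lost). Blocked, WWTR1 in VECs (0.94) also lost its call, and CCN2 in VECs (-1.03) and YAP1 in SCs minus FAPs (1.03) gained one. ANKRD1 was tested and called in FAPs at passage 0 against muscle, mainly through muscle, the higher group, and no other member call changed. Leaving out 1 donor gave 1 to 2 members for SMMCs against FAPs at passage 0 (1 without donor 4 or 10), 0 to 1 for sorted SC against unsorted cultures (0 without donor 1, 6 or 9) and 1 to 4 for SMMCs minus FAPs (1 without donor 10). CCN2 of VECs against FAPs in muscle was -0.95 without donor 2 and -0.92 without donor 9.

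Counts over all genes moved by over 1.5 times without the filter (in FAPs at passage 0 against muscle 3997 to 6925, in SCs 1789 to 5286), with thinning (3997 to 1609, 1789 to 512), with the block (SCs at passage 5 against 2 from 42 to 231, FAPs 81 to 434, FAPs at passage 8 against 5 from 46 to 120) and with DESeq2 (42 to 106, 81 to 149, 46 to 75, and 2 to 77 for FAPs of sorted against unsorted cultures). With matching cultures only they were 21, 392 and 221 for these 3 later comparisons. AJUBA, LATS2 and YAP1 are limited by depth in muscle, where most types held under 100 UMIs of each.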
